A study of Mus musculus with 6 samples.

Results

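The genes described are 10 of the hypoxia response, taken by name from the 23282 rows of the deposited count table: the hypoxia-inducible factor (HIF) subunit genes Hif1a, Epas1 and Arnt, the regulator gene Vhl, and 6 target genes outside glycolysis, Vegfa, Bnip3, Bnip3l, Ndrg1, Adm and Ankrd37. The libraries were made from alveolar macrophages, the resident phagocytes of the air spaces, sorted from mouse lung by CD45, CD11c, F4/80 and SiglecF with CD11b excluded. There were 3 libraries from wildtype mice and 3 from mice with floxed Sdha and LysM-Cre, a Cre recombinase driven from the Lyz2 locus in myeloid cells and so not only in alveolar macrophages (Sdha-KO). Each of 3 batches named in the labels holds 1 library of each genotype. Age, sex, strain and treatment of the mice, and whether wildtype mice carried Cre or floxed alleles, are not stated in the labels. Nor is it stated whether each library is 1 mouse or a pool, and the p-values therefore reflect variation between libraries that could be technical in part.

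Succinate dehydrogenase, whose catalytic flavoprotein is encoded by Sdha, oxidises succinate. HIF is a pair of a regulated alpha subunit (the products of Hif1a or Epas1) and the stable partner encoded by Arnt. In oxygenated cells the EGLN prolyl hydroxylases, which use oxygen and 2-oxoglutarate and release succinate, mark the alpha subunit for the VHL ubiquitin ligase, which leads to its breakdown. Control is thus largely on the protein, which RNA counts do not measure. The RNA of targets such as Vegfa reflects transcription and RNA decay together, which these counts do not separate. The comparison asks how loss of this enzyme in macrophages goes with the RNA of the factors and of their targets.

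Libraries held 5400160 to 8472907 counts. The ribosomal RNA row Rn45s took 36.3%, 57.6% and 44.7% of them in wildtype batches 1 to 3, and 20.9%, 43.4% and 48.2% in Sdha-KO. The batch 1 libraries lacked many transcripts: of 3447 rows with at least 100 counts in each of the other 4 libraries, the batch 1 wildtype library had 136 at 0 and its Sdha-KO counterpart had 612. For this reason each result is given within each batch and also without batch 1, a choice made after seeing the data. Levels are given as CPM, which are counts scaled by TMM factors to a library of 1000000. The targeted gene, Sdha, was at 56.0, 65.5 and 72.2 CPM in wildtype (here and below in the order of batches 1 to 3) against 26.1, 21.0 and 22.8 CPM in Sdha-KO, so the genotypes did not overlap. Its log2 fold change was -1.47 (SE 0.818; edgeR adjusted p = 1.00), and the adjusted p was 0.194 without batch 1 and 0.0327 without batch 1 and with the replicate block. Which exons are removed is not stated in the labels, and 3' reads can lie outside them.

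None of the 10 genes passed the test of Sdha-KO against wildtype. Of the 10, 8 had enough counts to be tested (Adm and Ankrd37 did not), and 0 of these 8 had an adjusted p under 0.05 in edgeR's quasi-likelihood test, against 0.0502% of the 9963 tested genes. None of the 8 had an unadjusted p under 0.05, against 2.64% of all tested genes. DESeq2 and limma-voom also called none of them. Within these limits the set was not uniform. Epas1 was higher in Sdha-KO in all 3 batches. Vegfa was at several times the wildtype level in both batches in which it was detected. Hif1a, Vhl and Bnip3 differed in direction from batch to batch.

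**Figure D1:**
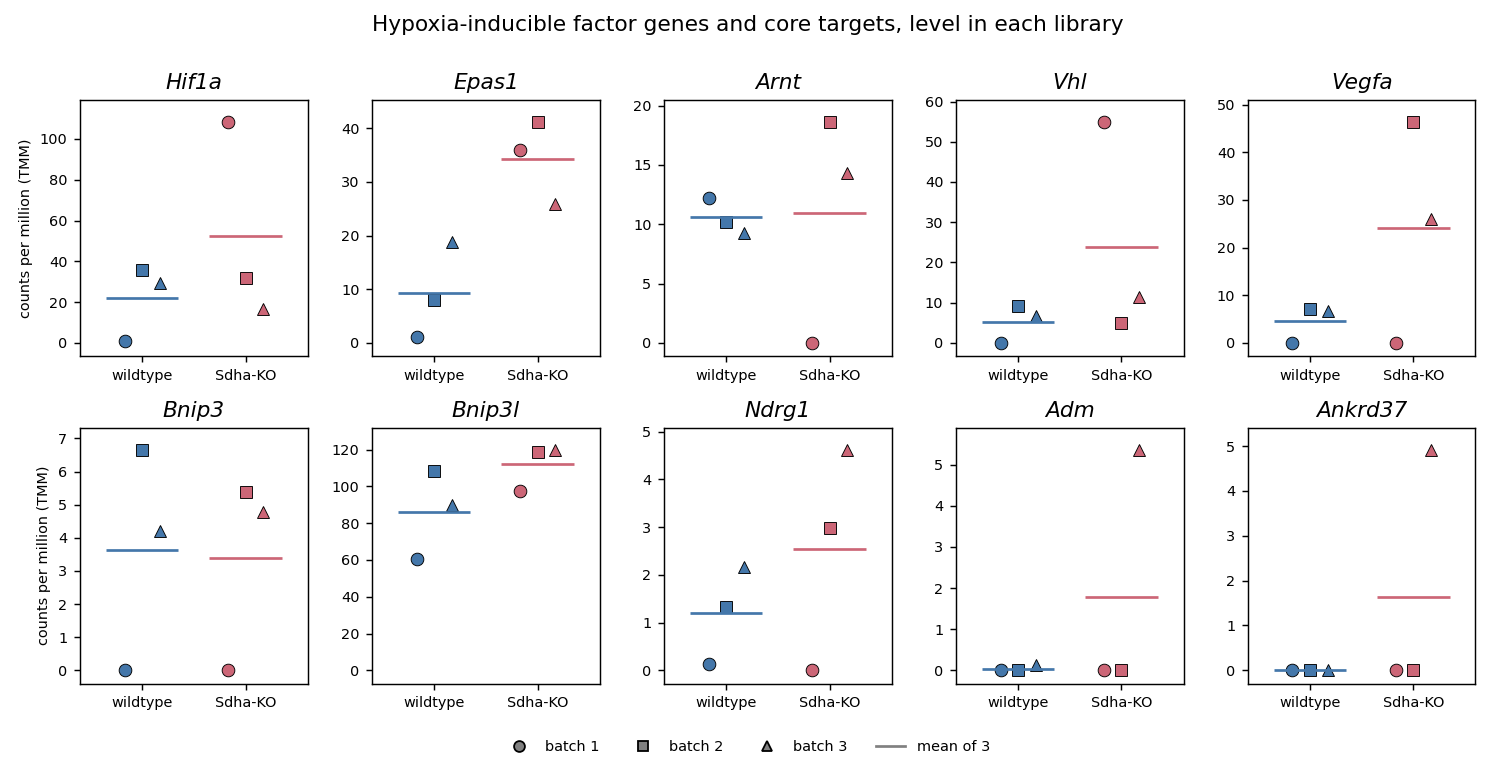
Level of each gene in CPM (TMM-scaled, linear axis) in the 3 wildtype and 3 Sdha-KO libraries, with 1 point per library shaped by batch and a line at the mean. Epas1 is the 1 panel of the 10 in which every Sdha-KO point lies above every wildtype point, and Vegfa separates in batches 2 and 3 but is at 0 in both batch 1 libraries.

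Among the factors, Epas1 (chromosome 17, 86753700 to 86833410, mm10, plus strand), which encodes HIF-2alpha, had 9, 36 and 148 counts in wildtype against 431, 221 and 173 in Sdha-KO. These are 1.10, 7.99 and 18.8 CPM against 36.0, 41.1 and 25.8 CPM. The wildtype libraries spread widely, and the lowest Sdha-KO value lay just above the highest wildtype value. The wildtype mean was 9.31 ± 8.94 CPM and the Sdha-KO mean 34.3 ± 7.79 CPM (SD, n = 3 each). The log2 fold change was 1.88 (SE 1.61; edgeR adjusted p = 1.00), and without batch 1 it was 1.32 (SE 0.611; edgeR adjusted p = 0.519). Within batches the Sdha-KO level was 32.6-fold (95% interval of counting error 17.0 to 71.8), 5.14-fold (3.60 to 7.54) and 1.37-fold (1.09 to 1.72) the wildtype level. The size of this difference therefore varied by more than counting error between batches.

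Hif1a (chromosome 12, 73901375 to 73947530, plus strand), which encodes HIF-1alpha, had 7, 161 and 232 counts in wildtype against 1296, 171 and 111 in Sdha-KO. At 0.858, 35.7 and 29.5 CPM against 108, 31.8 and 16.5 CPM, the genotypes overlapped. The batch 1 pair holds both the lowest and the highest of the 6 values. The fitted log2 fold change of 1.24 (SE 1.30; edgeR adjusted p = 1.00) had the other sign without batch 1, at -0.42 (SE 0.508; edgeR adjusted p = 0.896). The Sdha-KO level was 126-fold the wildtype level in batch 1, 0.890-fold in batch 2 (interval 0.713 to 1.11) and 0.560-fold in batch 3 (0.443 to 0.705). In the 2 batches with fuller libraries Hif1a was thus not higher in Sdha-KO, and in batch 3 it was lower beyond counting error. Exons of Hif1a overlap those of the antisense gene Gm15283 and of Gm49321, so its count is uncertain.

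Arnt (chromosome 3, 95434388 to 95497240, plus strand), the shared partner of both alpha subunits, was at 12.3, 10.2 and 9.29 CPM in wildtype against 0, 18.6 and 14.3 CPM in Sdha-KO. The wildtype values lay close together, and the Sdha-KO values were above them in 2 libraries and at 0 in the library from batch 1. Batches 2 and 3 gave 1.82-fold (1.27 to 2.64) and 1.54-fold (1.12 to 2.12) higher values in Sdha-KO. In batch 1 the Sdha-KO level was at least 49.0-fold lower, taking 3 counts per library as the most that a count of 0 allows by counting error, in a library that lacks many transcripts. The fitted log2 fold change was 0.05 (SE 2.17; edgeR adjusted p = 1.00), and it was -0.82 with the replicate number as a block and 0.76 without batch 1.

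Vhl (chromosome 6, 113623959 to 113631633, plus strand), the part of the ubiquitin ligase that recognises hydroxylated HIF, had 0, 41 and 52 counts in wildtype against 657, 27 and 77 in Sdha-KO. Levels were 0, 9.10 and 6.62 CPM against 54.8, 5.02 and 11.5 CPM. The Sdha-KO library of batch 1 stood far above all others, and the remaining values overlapped. Sdha-KO was at 0.552-fold the wildtype level in batch 2 (0.326 to 0.919) and at 1.73-fold in batch 3 (1.20 to 2.51), opposite directions that each exceed counting error. The log2 fold change moved from 2.18 (SE 2.16) with 6 libraries to 0.08 (SE 0.977) without batch 1, and neither passed (edgeR adjusted p = 1.00 and 0.993). A processed pseudogene, Vhl-ps1, is annotated and has no row in the table, so reads matching both would be uncertain.

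Of the targets, Vegfa (chromosome 17, 46016993 to 46032369, minus strand), the vascular endothelial growth factor gene, showed the widest gap among the 4 targets that could be tested. It had 0, 32 and 52 counts in wildtype against 0, 249 and 174 in Sdha-KO, or 0, 7.10 and 6.62 CPM against 0, 46.3 and 25.9 CPM. Both batch 1 libraries were at 0, which by counting error alone allows up to 0.368 CPM (wildtype) or 0.250 CPM (Sdha-KO). Since these libraries lack many transcripts that the others hold, a 0 there does not limit the level in the cells. In batches 2 and 3 the wildtype values were nearly equal and both Sdha-KO values lay above them, by 6.52-fold (4.50 to 9.74) and 3.92-fold (2.86 to 5.45). With 6 libraries the log2 fold change was 2.39 (SE 2.47; edgeR adjusted p = 1.00). Without batch 1 it was 2.40 (SE 0.586), the unadjusted p was 0.00377, and the edgeR adjusted p was 0.245, or 0.0686 with the replicate block as well. These adjusted values did not pass.

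Among the 4 libraries without batch 1, Vegfa was the 1 of 8 tested members with an unadjusted p under 0.05, where 10.2% of 10757 tested genes had one. None of the 8 had an adjusted p under 0.05, against 0.251% of all, and none with the replicate block, against 3.01% of all. Sex-linked transcripts also differed by genotype among these 4 libraries. Xist was at 1023 and 771 CPM in wildtype replicates 2 and 3 and at 92.6 and 123 CPM in Sdha-KO replicates 2 and 3, and the Y-linked Ddx3y was at 0 and 18.2 against 65.8 and 64.4 CPM. In that comparison genotype and the mix of sexes cannot be told apart. The batch 1 libraries, which lack many transcripts, differed the other way. There Xist was at 0 CPM in wildtype against 224 CPM in Sdha-KO, and Ddx3y at 27.2 against 0 CPM.

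Ndrg1 (chromosome 15, 66929318 to 66969640, minus strand), a stress-responsive gene long used as a hypoxia marker, had 1, 6 and 17 counts in wildtype against 0, 16 and 31 in Sdha-KO. Counts were low in all 6 libraries and the genotypes overlapped. Sdha-KO was 2.23-fold higher in batch 2 (0.831 to 6.97) and 2.13-fold higher in batch 3 (1.15 to 4.11), so the first of these lies within counting error. The log2 fold change over 6 libraries was 1.06 (SE 2.52; edgeR adjusted p = 1.00). Its exons overlap those of Gm17035 and Gm2895 on the other strand, and whether counting used strand is not known from the labels, so its count is uncertain.

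The paralogs Bnip3 and Bnip3l encode outer mitochondrial membrane proteins that act as receptors in mitophagy. Bnip3l (chromosome 14, 66985239 to 67008877, minus strand) was the steadiest of the 10 genes, at 60.7, 108 and 90.1 CPM in wildtype against 97.7, 119 and 120.0 CPM in Sdha-KO. The genotypes overlapped only because wildtype replicate 2 lay above Sdha-KO replicate 1. Sdha-KO was 1.61-fold (1.45 to 1.79), 1.10-fold (0.975 to 1.24) and 1.33-fold (1.20 to 1.47) the wildtype level in batches 1 to 3. The log2 fold change was 0.38 (SE 0.467; edgeR adjusted p = 1.00). An annotated transcribed pseudogene, Bnip3l-ps, has no row of its own, so this count is uncertain.

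Bnip3 (chromosome 7, 138890836 to 138909519, minus strand) was much lower, with 0, 30 and 33 counts in wildtype against 0, 29 and 32 in Sdha-KO. At 6.66 and 4.20 CPM against 5.39 and 4.77 CPM in batches 2 and 3, the genotypes overlapped, and both batch 1 libraries were at 0. The within-batch ratios were 0.810 (0.469 to 1.40) and 1.14 (0.676 to 1.90), so no difference was detectable at this depth, where the intervals still reach from 0.469-fold to 1.90-fold. The log2 fold change was -0.10 (SE 2.62; edgeR adjusted p = 1.00) and turned to 0.08 when libraries were scaled by totals alone. Exons of Bnip3 overlap the antisense gene Gm45507, so its count is uncertain.

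Adm and Ankrd37 were seen almost only in 1 library. Adm (chromosome 7, 110627661 to 110629820, plus strand), the gene of the vasodilator peptide adrenomedullin, had 36 counts in Sdha-KO replicate 3, 1 count in the wildtype library of that batch and 0 in the other 4. In batch 3 that is a ratio of 42.1 with a counting interval of 7.10 to 1710. Ankrd37 (chromosome 8, 45996902 to 46005707, minus strand), an ankyrin repeat gene, had 33 counts in Sdha-KO replicate 3 and 0 in the other 5, which makes Sdha-KO at least 12.9-fold higher in batch 3 against 3 counts. Since Sdha-KO replicate 2 had no count of either gene, the 2 detections rest on 1 library. Exons of Ankrd37 overlap those of Lrp2bp and Ufsp2 on the other strand, so its count is uncertain too.

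**Figure D2:**
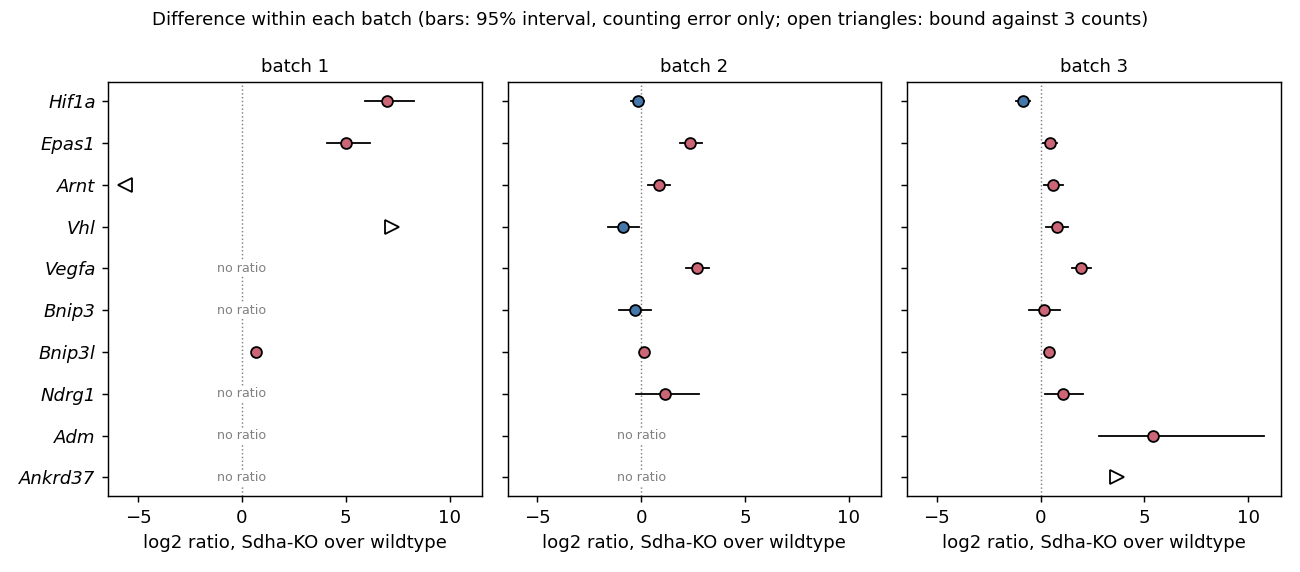
Log2 ratio of Sdha-KO over wildtype within each batch, with 95% intervals that cover counting error only, red points above 0 and blue points below 0. Open triangles are bounds against 3 counts where 1 library was at 0, and "no ratio" marks pairs at or under 3 counts in both libraries. Vegfa lies at 2.71 and 1.97 in batches 2 and 3, while Hif1a lies at 6.98 in batch 1 and at -0.17 and -0.84 in batches 2 and 3.

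The spread among members can also be read from counts. Sdha-KO lay wholly above wildtype in 1 of the 8 tested members, Epas1, where 5.04% of all tested genes did so, and wholly below in 0 of 8, where 9.27% did. Between batches 2 and 3, 5 of the 8 were higher in Sdha-KO in both (Epas1, Arnt, Vegfa, Bnip3l and Ndrg1), against 28.1% of all tested genes. A difference of over 2-fold in both batches, a cutoff chosen after the values were seen, held for Vegfa and Ndrg1, 2 of 8, against 5.22% of all. The median log2 fold change of the 8 was 1.15 with 6 libraries and 0.52 without batch 1, beside -0.13 and -0.02 over all tested genes. With the replicate number as a block 0 of the 8 passed, as did 0% of all tested genes, and the medians were 0.73 and -0.48.

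The start regions of 4 targets and of Egln3, a further gene of the pathway described next, are shown so that their HIF core motifs can be seen. The HIF core motif was searched as ACGTG and GCGTG on both strands in the 250 bases before each annotated start, from RefSeq sequences on GRCm38.p6, which has the coordinates of mm10. CACGTG holds ACGTG on both strands and counts as 2 matches. Of 32851 starts, 38.6% held at least 1 match and 2.58% held 4 or more. Sequences were matched for 7 of the 10 genes, the others being Epas1, Bnip3l and Ndrg1. The windows below are Vegfa (chr17:46032378-46032627, minus strand, the start farthest upstream), Bnip3 (chr7:138909507-138909756, minus strand), Adm (chr7:110627407-110627656, plus strand), Ankrd37 (chr8:45999851-46000100, minus strand) and the prolyl hydroxylase gene Egln3 (chr12:54203875-54204124, minus strand), 5′ to 3′ on the gene's strand with motif letters in capitals.
Vegfa: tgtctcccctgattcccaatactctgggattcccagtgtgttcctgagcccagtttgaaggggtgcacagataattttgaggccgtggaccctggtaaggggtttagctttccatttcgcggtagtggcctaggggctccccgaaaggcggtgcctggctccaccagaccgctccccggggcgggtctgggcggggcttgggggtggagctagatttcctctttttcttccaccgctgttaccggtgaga
Bnip3: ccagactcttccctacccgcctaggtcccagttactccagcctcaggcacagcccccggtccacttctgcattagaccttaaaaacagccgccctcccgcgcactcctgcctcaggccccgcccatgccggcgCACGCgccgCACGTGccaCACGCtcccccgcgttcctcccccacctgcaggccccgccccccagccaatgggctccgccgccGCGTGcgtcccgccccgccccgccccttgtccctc
Adm: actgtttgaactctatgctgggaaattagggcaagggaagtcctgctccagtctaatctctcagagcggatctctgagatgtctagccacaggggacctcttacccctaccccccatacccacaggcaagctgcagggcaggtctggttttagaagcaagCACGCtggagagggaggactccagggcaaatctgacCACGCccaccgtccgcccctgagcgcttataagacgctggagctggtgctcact
Ankrd37: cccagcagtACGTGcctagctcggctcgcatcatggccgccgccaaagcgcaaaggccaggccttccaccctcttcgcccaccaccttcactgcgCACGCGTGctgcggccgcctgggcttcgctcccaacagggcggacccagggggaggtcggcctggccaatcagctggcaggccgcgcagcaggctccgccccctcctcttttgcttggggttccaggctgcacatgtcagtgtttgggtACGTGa
Egln3: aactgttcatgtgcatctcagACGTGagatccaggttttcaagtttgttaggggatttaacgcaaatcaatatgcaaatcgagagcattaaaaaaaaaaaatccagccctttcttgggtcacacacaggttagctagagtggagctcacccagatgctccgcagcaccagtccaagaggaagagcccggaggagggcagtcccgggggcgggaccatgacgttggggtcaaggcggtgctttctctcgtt
Bnip3 held 5 matches and Ankrd37 held 4, among the densest windows of all starts, and Adm held 2. Vegfa held 0 in this window, and 2 before its second annotated start (chr17:46025164-46025413, minus strand), a GCGTG 218 and an ACGTG 211 bases upstream. Egln3 held 1, at 229 bases before the start. A match is a stretch of letters and not a measured binding site, and its absence says only that these letters are not in this window.

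Of the hydroxylase genes that sense oxygen for HIF, Egln3 was higher in Sdha-KO in every batch. Egln1, Egln2 and Hif1an differed in direction from batch to batch. A list of 22 further genes of the pathway (hydroxylases, ligase subunits, coactivators and chaperones) had 21 tested members, of which 0 passed in edgeR, 13 had positive and 8 negative log2 fold changes, and the median was 0.41. With an unadjusted p under 0.05 there was 1 of 21, Egln3, a share near the 2.64% of all tested genes. Egln3, which encodes prolyl hydroxylase PHD3 and is itself a known HIF target, had 0, 1 and 0 counts in wildtype against 602, 85 and 47 in Sdha-KO, or 50.2, 15.8 and 7.01 CPM in Sdha-KO. No wildtype library held more than 1 count, and every Sdha-KO library held many. Egln3 was named for its lack of overlap, so the separation follows from that choice. It also passed the count filter through its Sdha-KO counts alone. Sdha-KO was at least 137-fold higher in batch 1 and at least 18.3-fold higher in batch 3 against 3 counts, and the ratio in batch 2 was 71.2 (12.4 to 2846). It did not pass in edgeR (unadjusted p = 0.0109, adjusted p = 1.00; adjusted p = 0.288 without batch 1), while DESeq2 gave an adjusted p of 0.00653, and 0.00327 with the replicate block.

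Egln1, the main HIF prolyl hydroxylase gene PHD2, was at 58.1, 13.5 and 16.3 CPM in wildtype against 9.26, 53.4 and 33.7 CPM in Sdha-KO. Sdha-KO was thus 3.94-fold (2.98 to 5.29) and 2.07-fold (1.66 to 2.59) higher in batches 2 and 3 and 6.27-fold lower in batch 1. Egln2 was at 37.7, 21.1 and 27.0 against 3.34, 7.25 and 34.6 CPM, and Hif1an, the asparaginyl hydroxylase gene, at 0, 1.11 and 4.07 against 70.1, 0 and 11.3 CPM, with overlap in both. These 3 genes were named after their values were seen, as the other hydroxylases of the family. The most abundant genes of the list are general ones: the chaperone genes Hsp90ab1 (2497 ± 931 CPM for wildtype, 2344 ± 73.0 CPM for Sdha-KO) and Hsp90aa1 (491 ± 270 and 655 ± 462 CPM), and Rack1 (453 ± 54.7 and 747 ± 276 CPM; SD, n = 3 each). Os9, the gene of a lectin of the endoplasmic reticulum, was at 142, 142 and 158 CPM in wildtype against 142, 75.7 and 92.7 CPM in Sdha-KO. The groups did not overlap, for which Os9 was named, but in batch 1 they differed by under 1 CPM. It had a log2 fold change of -0.51 (SE 0.428).

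**Figure D3:**
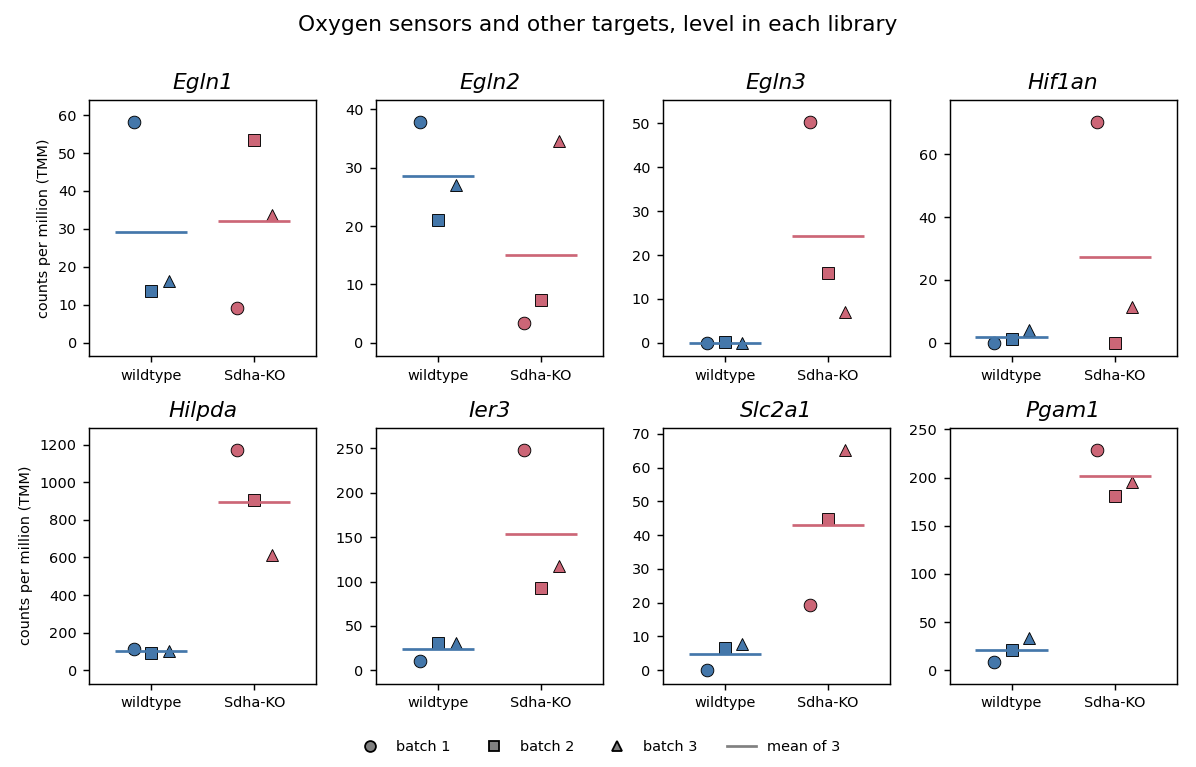
Level in CPM (TMM-scaled, linear axis) of the hydroxylase genes Egln1, Egln2, Egln3 and Hif1an and of the targets Hilpda, Ier3, Slc2a1 and Pgam1, with 1 point per library shaped by batch and a line at the mean. Sdha-KO points lie above all wildtype points for Egln3 and for the 4 targets, and overlap them for Egln1, Egln2 and Hif1an. Lack of overlap was part of the rule by which Egln3 and the 4 targets were named.

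Other targets of HIF outside glycolysis, a list of 43 genes chosen with earlier results of these data known, had 32 tested members. Of these 1 passed, against 0.0502% of all tested genes, 24 were positive and 8 negative, and the median log2 fold change was 0.46. Sdha-KO lay wholly above wildtype in 6 of the 32 and wholly below in 1, where 5.04% and 9.27% of all tested genes did so. The 1 that passed was Hilpda, which encodes an inhibitor of lipid droplet breakdown, and which rose within each batch, by 10.2-fold, 9.96-fold and 5.89-fold. Its log2 fold change was 3.12 (SE 0.351; edgeR adjusted p = 0.0117, and adjusted p = 0.194 with the replicate block). The call was also lost without wildtype replicate 1 (edgeR adjusted p = 0.0910), with a log2 fold change of 3.20. It held without batch 1 (log2 fold change 2.97, SE 0.278; edgeR adjusted p = 0.0155), a fit that shares the difference in sex. Of the 19 alternatives 15 called Hilpda, and all 19 gave it a higher level in Sdha-KO. Ier3, an early stress response gene named for its lack of overlap, was at 10.5, 30.6 and 30.8 CPM in wildtype against 248, 93.0 and 118 CPM in Sdha-KO, and did not pass (log2 fold change 2.67, SE 0.635; edgeR adjusted p = 0.491). Kdm4c, a histone demethylase gene, was the 1 gene wholly lower, at 18.3, 18.0 and 12.4 CPM against 0, 7.81 and 6.86 CPM (log2 fold change -1.73, SE 2.19; edgeR adjusted p = 1.00). The abundant Plin2, a lipid droplet coat gene, was at 677 ± 75.0 and 824 ± 94.9 CPM, and Anxa2, an annexin gene, at 1018 ± 232 and 1056 ± 142 CPM (SD, n = 3 each), with overlap in both.

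The glycolytic targets gave the most even picture, though pseudogenes were not looked up for this list. Of 18 genes 16 were tested, 0 passed in edgeR, 4 had an unadjusted p under 0.05 (2.64% of all tested genes had one), 13 were positive and 3 negative, and the median was 0.95. Sdha-KO lay wholly above wildtype in 9 of 16 and wholly below in 0, against 5.04% and 9.27% of all tested genes. In batches 1, 2 and 3 respectively 13 of 14, 14 of 16 and 15 of 16 members with at least 10 counts in the pair were higher in Sdha-KO, where 38.2%, 47.5% and 48.8% of all tested genes were. Slc2a1, the glucose transporter gene, was at 0, 6.66 and 7.64 CPM in wildtype against 19.2, 44.8 and 65.3 CPM in Sdha-KO (log2 fold change 3.17, SE 1.87; edgeR adjusted p = 1.00). Pgam1, a phosphoglycerate mutase gene, was at 8.33, 20.6 and 33.5 CPM against 229, 181 and 195 CPM (log2 fold change 3.27, SE 0.580; edgeR adjusted p = 0.103). Both were named for their lack of overlap, so it follows from that choice that every Sdha-KO value exceeded every wildtype value. Pkm was at 135 ± 19.2 and 448 ± 212 CPM, Aldoa at 514 ± 155 and 795 ± 173 CPM, and Hk2 at 134 ± 55.4 and 177 ± 90.1 CPM (SD, n = 3 each), the last 2 with overlap. Without batch 1, 1 of 17 tested genes of the list passed, Pgam1 (edgeR adjusted p = 0.0266), against 0.251% of all tested genes. With the replicate block as well 7 did, all higher, against 3.01% of all, among them Slc2a1 (edgeR adjusted p = 0.00223). That fit has 1 residual degree of freedom and shares the difference in sex.

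**Figure D4:**
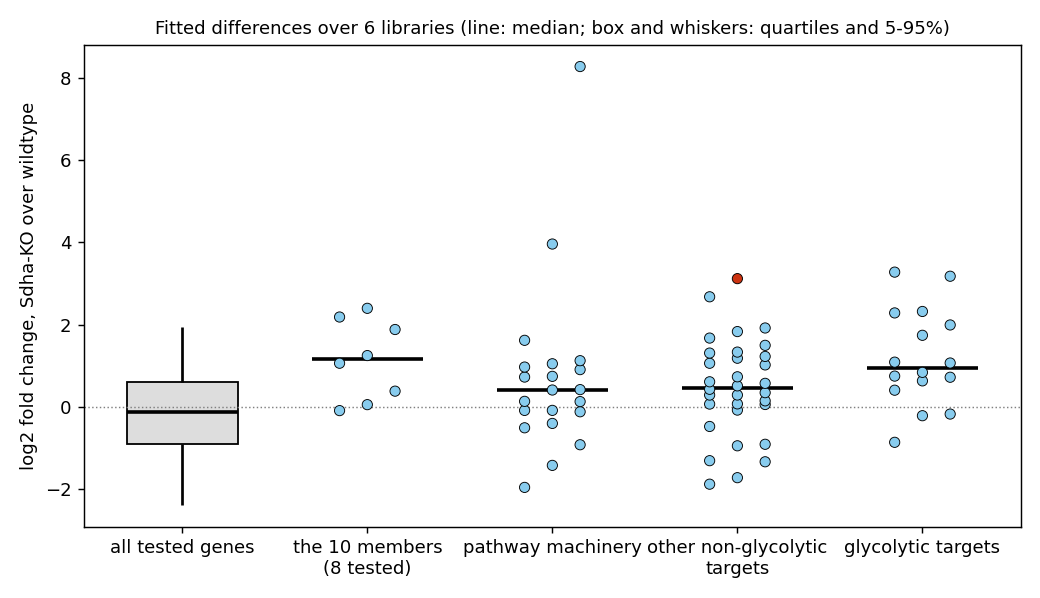
Fitted log2 fold change of Sdha-KO over wildtype in 6 libraries for each tested gene of the lists, with a line at the median, beside all 9963 tested genes as a box (25% to 75%) with whiskers (5% to 95%). Medians are 1.15 for the 8 tested members, 0.41 for pathway machinery, 0.46 for other targets and 0.95 for glycolytic targets, against -0.13 for all genes; the red point is Hilpda, the 1 gene past the threshold.

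Other cell types were looked for because some express HIF genes strongly. Markers of alveolar macrophages were all detected (15 of 15), with summed levels of 8139 to 9637 CPM in wildtype against 6623 to 8471 CPM in Sdha-KO. Much of that sum is Chil3, which overlapped (4252, 4509 and 5424 against 3507, 5385 and 4041 CPM). The median log2 fold change of the 15 was -0.84, and 5 of them lay wholly below wildtype in Sdha-KO (Siglecf, Krt79, Ear1, Ear2 and Cidec) and 1 wholly above (Car4). Of all tested genes 9.27% lay wholly below and 5.04% wholly above. Ear1, a ribonuclease gene, fell by 2.26 on the log2 scale (SE 0.321; edgeR adjusted p = 0.0261, and adjusted p = 0.374 with the replicate block). Siglecf, whose product was a sort marker, was at 103, 138 and 132 CPM against 0, 39.6 and 45.3 CPM (edgeR adjusted p = 1.00). These marker genes were named after their values were seen, and their part in the differences of the HIF genes was not tested.

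Summed neutrophil markers (7 of 8 with counts) were at 74.1 to 107 CPM in wildtype against 168 to 218 CPM in Sdha-KO, and monocyte and interstitial macrophage markers (9 of 9) at 20.6 to 57.0 and 79.5 to 221 CPM. Dendritic cell markers (9 of 9) were at 16.0 to 44.3 and 44.8 to 229 CPM. These 3 sums did not overlap between genotypes, but of their genes only Ccr2 separated on its own, at 5.39, 13.1 and 21.5 CPM against 79.0, 27.7 and 68.1 CPM. Of all tested genes 5.04% lay wholly above wildtype in Sdha-KO. Median log2 fold changes of the tested genes were 1.13, 2.08 and 1.72 for the 3 lists. Cxcr2 was higher in Sdha-KO within each batch (0.490, 11.5 and 0.891 against 4.76, 80.9 and 28.5 CPM). So was Ccr7 (0, 2.22 and 9.55 against 5.01, 27.5 and 96.7 CPM). Others were lower in Sdha-KO in some batches. Csf3r was at 5.55 and 4.46 against 0 and 0 CPM in batches 2 and 3. S100a8 was at 91.8 against 75.0 CPM and Xcr1 at 153 against 2 counts in batch 1, and Batf3 at 44 against 0 counts in batch 2. In batch 3, however, S100a8, Xcr1 and Batf3 were higher in Sdha-KO. None of the tested markers of these 3 lists passed in edgeR. The part of these cells in the differences of Epas1, Egln3 and Vegfa was not tested, and in sorted bulk RNA fewer cells of a type and less RNA per cell cannot be told apart. Endothelial markers (10 of 10), of a cell type rich in Epas1, summed to 51.3 to 56.9 CPM in wildtype against 47.1 to 81.2 CPM in Sdha-KO. Of the highest sum, in Sdha-KO batch 1, 67.5 CPM was Egfl7 alone. The median log2 fold change of the 7 tested endothelial markers was -0.64. Epithelial markers (9 of 9) summed to 284 to 471 CPM in wildtype and 198 to 815 CPM in Sdha-KO. Lymphocyte markers (7 of 8) were at 0 to 32.2 and 0 to 33.4 CPM, and eosinophil markers at no more than 1.78 CPM, with Epx and Prg2 at 0 in all 6 libraries.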

How the data were processed

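RNA of 6 libraries, 3 wildtype and 3 Sdha-KO, was measured with a QuantSeq 3' kit, which reads near the poly(A) end of transcripts, per the labels' protocols. The authors deposited 1 table of raw read counts per gene symbol. Bowtie2, bedtools and the build mm10 are named, per the submitters' processing notes. Versions, annotation, strand use and the handling of reads with several matches are not stated there. The labels name no molecular identifiers, and intervals and limits cover counting error only.

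The deposited counts were tested with edgeR 4.0.16 (filterByExpr with a minimum count of 10, TMM, robust quasi-likelihood fit and F-test; R 4.3.3). Genotype was the only term, with Benjamini-Hochberg adjustment over 9963 genes at 0.05. Library sizes are sums over the tested rows. The SE is the log2 fold change divided by the square root of F. Within-batch intervals are exact binomial 95% intervals of the ratio of 2 counts. The fitting code was tested on simulated data. Alternatives were RLE factors, totals alone, 2 other filters, DESeq2 1.42.0, limma-voom (limma 3.58.1), the replicate block and each library left out.

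The labels give each replicate number as a batch, so the numbers pair the libraries. Deviations from group means correlated at 0.155, 0.117 and 0.126 for libraries of the same number and at -0.152 to 0.111 for others. The members and lists were chosen with earlier results of these data known. Beside the members and Sdha, the rule for named genes took from each list the genes past the threshold, the 3 most abundant, and up to 2 per direction without overlap. Older symbols in the table (Tceb1, Tceb2 and Gnb2l1) were matched through RefSeq synonyms. Gene positions and exon overlaps come from GENCODE M21 (mm10).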

Additional observations from a re-analysis of the deposited data

How the results depend on the processing

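None of the 19 alternatives, of which 4 were added after seeing the data, called any of the 10 genes (DESeq2 gave no adjusted p for Bnip3 and Ndrg1; without a filter, Adm and Ankrd37 had adjusted p of 0.926 and 0.866). The median log2 fold change of the members stayed positive, between 0.52 and 1.65, with 0.60 to 1.65 when single libraries were left out; that of all tested genes was -0.13 and became 0.05 with library totals alone. Directions of Epas1, Vegfa and Bnip3l held in every alternative that tested them. Hif1a turned to -0.42 without both batch 1 libraries and to -0.49 with the replicate block as well, where Vhl was -0.012. Arnt turned to -0.82 with the replicate block in edgeR, -0.83 in DESeq2 with the block, -2.39 in limma-voom and -3.11 in limma-voom with the block, where Ndrg1 was -0.12; it ranged from -0.56 to 0.64 with single libraries left out. Bnip3 turned to 0.078 with library totals alone and ranged from -0.68 to 0.67 with single libraries left out. The causes were not tested.

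Calls among the glycolytic targets numbered 1 with library totals alone and in DESeq2 with and without the replicate block, and 2 without a filter. Without both batch 1 libraries they numbered 1 of 17, against 0.251% of all tested genes. With the block added to the fit without batch 1 they numbered 7 of 17, against 3.01% of all. With single libraries left out they numbered 0 to 1 (1 without wildtype replicate 2 and 1 without wildtype replicate 3). The pathway machinery had 1 call, Egln3, in DESeq2 with and without the block. Other targets had 0 calls with the replicate block in edgeR or limma-voom and 0 with a stricter filter. They had 0 without wildtype replicate 1 (range 0 to 1 with single libraries left out) and 2 without a filter. With batch 1 left out and the block added 5 of 34 passed, against 3.01% of all tested genes. Over all genes 5 of 9963 passed (0.0502%), against 0 with the replicate block, 0 with a stricter filter and 9 with library totals alone. There were 20 in limma-voom, 21 in DESeq2, 72 in DESeq2 with the block and 48 without a filter. With single libraries left out there were 0 to 13. Without both batch 1 libraries 27 of 10757 passed (0.251%), and 324 (3.01%) when the block was added to that fit. Tested genes numbered 6969 to 15381 over the alternatives. The batch 1 libraries have the highest totals (8239600 and 8472907 counts) but the fewest detected genes (7893 and 5438), so depth does not set what a 0 there means.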
